A study of Mus musculus with 21 samples.

Results

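The genes described here are 8 GTPase-activating proteins of RAS: Nf1, Rasa1, Rasa2, Rasa3, Rasal1, Rasal2, Rasal3 and Dab2ip. They were chosen by symbol, are 8 of the 24028 gene rows of a count table from 21 mouse mammary tumours, and all 8 passed the filter on low counts. The tumours arose in mice carrying WAP-Cre and the activated PIK3CA-H1047R allele, and every group shares this genotype. WAP-Cre places the recombinase under the promoter of a milk protein, so the oncogene is switched on in mammary epithelium while the host keeps its own normal immune, stromal and other cells. Tumours of the vehicle group (n = 7) came from mice given DMSO. The relapse group (n = 7) and the stable group (n = 7) came from mice given BYL719, a PI3K alpha inhibitor also known as alpelisib, and are labelled as relapsed or stable under it. The text describing the design calls the first of these classes responding rather than relapsed, and the labels give no age, dose or time on drug. Tumour names carry a code and a site. The vehicle tumours have 3 codes, the stable tumours 4 and the relapse tumours 7, and 2 codes occur in both drug groups. Whether a code is an animal is not stated, and p-values treat each tumour as a sample of its own although tumours with the same code may share a host.

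RAS is a membrane switch that is on while it holds GTP. GTPase-activating proteins (GAPs) speed the hydrolysis of that GTP and so turn RAS off, opposing the exchange factors that load it. Neurofibromin, the product of Nf1, is the member whose loss causes neurofibromatosis type 1, and the title of the series names its loss as a route to resistance against PI3K alpha inhibition in breast cancer. Nothing in the labels says that Nf1 was deleted in these tumours, so its RNA level was the first quantity to be compared.

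The members share a catalytic domain, and the sequences below show a stretch found in all 8 genes by a search for a short residue pattern. In each coding sequence (GENCODE vM21, GRCm38), translation gave exactly 1 place with phenylalanine, leucine and arginine in a row and alanine as the eighth residue, a signature of RAS GAP domains. The 24 bases encoding it are printed 5′ to 3′ on the coding strand, with the codon of the conserved arginine in capitals.
Nf1: tttctcAGAttcatcaatcctgcc
Rasa1: tttcttCGCcttatctgccctgct
Rasa2: ttccttCGTttctttgctgtagcg
Rasa3: ttcctcAGGttcttcgcccctgcc
Rasal1: tttctgCGGttctttgcgcctgcc
Rasal2: tttctcCGTtttctttgcccagcc
Rasal3: ttcctgAGGcttttatgccctgcc
Dab2ip: ttccttCGCttcctgtgccctgcc
The Nf1 stretch lies at chr11:79468771-79468794 on the + strand, in exon 32 of the 58 exons of the annotated transcript used, and its arginine is codon 1414 of 2841. The Rasa1 stretch lies at chr13:85221505-85221528 on the - strand, in exon 21 of 25. Of the 24 bases, Rasa3 had 18 in common with Nf1, Rasal1 had 16, Rasa1, Rasal2 and Dab2ip had 15 each, Rasal3 had 14 and Rasa2 had 12. Part of this likeness was set in advance, because the search required the phenylalanine, leucine, arginine and alanine. The reads were counted per gene, so these stretches identify the family and carry no measurement of their own.

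Total counts ran from 13337848 to 24873844 per tumour. Vehicle tumours 2, 6 and 7 stood apart from the other 18 tumours on an axis of a principal component analysis that took up 45.9% of the variance. In them the summed level of 12 basal and myoepithelial markers was 18240, 24070 and 11040 CPM (counts scaled to the library total), against at most 5751 CPM in any other tumour. Cnn1, calponin of smooth muscle, was at 400.4 to 852.5 CPM against at most 8.68 CPM elsewhere. The list was split. Contractile genes were high, with Myh11 at 5224, 9056 and 4707 CPM in these tumours. The keratin Krt14 was low, at 85.03, 171.6 and 341.9 CPM against 771 to 2507 CPM in the other vehicle tumours. Krt5, at 229.6, 323.3 and 421.4 CPM, lay within the range of those others (190.6 to 825.1 CPM). The 8 luminal markers were at 1654 to 4476 CPM over all 21 tumours and none of them passed the test between groups, so the epithelial markers of a mammary tumour were present in every library. Of 10 skeletal muscle markers, 9 rose in relapse and 5 in stable against vehicle (11.2% and 15.1% of all genes were called). Without vehicle 2, 6 and 7, 0 were called in either comparison, and with counts summed per code 4 and 0. Their median log2 fold changes, 5.1 and 3.18 with all tumours, stayed large at 4.45 and 2.52 without those tumours. Summed per code they were 5.03 and 3.57. The summed level of the muscle markers was 211.1 to 551 CPM for vehicle, 188.7 to 7549 CPM for relapse and 219 to 4362 CPM for stable samples. In whole tumours, fewer cells of a type and less RNA per cell cannot be told apart.

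Per kilobase of gene length, using the length column of the table, for which it is not stated whether it measures all exons or 1 transcript, Rasa1 was the most abundant member, with a median of 64.2 CPM per kb over the 21 tumours (range 46.7 to 84.1). Rasa1, p120 RasGAP, binds phosphorylated receptors through its SH2 domains. Nf1 came second at a median of 18.2 CPM per kb (13.7 to 39.1). Rasa1 was above Nf1 in all 21 tumours and Nf1 above Dab2ip, at a median of 15.2 CPM per kb, in 17 of 21.

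The middle of the order was close. Rasa3 had a median level of 10.8 CPM per kb, Rasal2 9.93, Rasa2 9.58 and Rasal1 9.05, and from Dab2ip down to Rasal1 each gene exceeded the next in only 13 or 14 of the 21 tumours. Rasal3 was lowest at 1.28 CPM per kb (0.761 to 3.66), below Rasal1 in all 21 tumours. Rasa1 supplied 31.4% to 51.1% of the summed level of the 8 genes per kb, and Nf1 9.72% to 23.1%. The plot of levels per length sets these out.

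**Figure D1:**
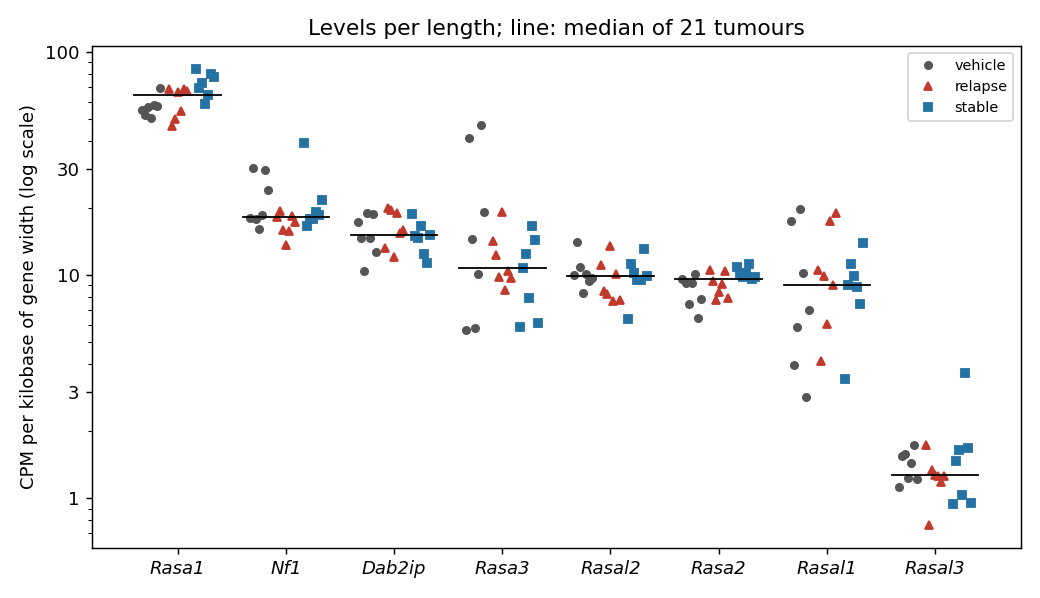
Level of each of the 8 members in CPM per kilobase of gene length (log axis), one point per tumour, marked by group, with the median over 21 tumours marked. Rasa1 lies above every other member at a median of 64.2, Nf1 follows at 18.2, and Rasal3 is lowest at 1.28.

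The members differed in how far they varied between tumours. Rasa3 and Rasal1 were the most variable, with standard deviations of 0.82 and 0.81 in log2 CPM over the 21 tumours, at percentiles 78 and 77.2 among all genes tested. Rasa2 and Rasa1 varied least, with SDs of 0.21 and 0.24, at percentiles 9.55 and 14.9. Nf1 lay between them with an SD of 0.36, at percentile 37.9.

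Nf1 RNA was present in all 21 tumours and did not pass the test in any comparison. In vehicle tumours 1 to 7 it stood at 274.1, 459.9, 271.7, 247, 284.2, 450 and 368 CPM. In relapse tumours 1 to 7 it stood at 278.1, 296.9, 242.1, 208.3, 240.6, 279.9 and 263.3 CPM. In stable tumours 1 to 7 it stood at 596.5, 253.1, 271.7, 273.8, 293.7, 282.7 and 330.8 CPM. The high values were vehicle 2, 6 and 7 and stable 1, and the relapse tumours spanned the narrowest range, with 3 of the 7 below the lowest vehicle tumour.

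The group means of Nf1 were 336 ± 89.4 CPM in vehicle, 259 ± 30.2 in relapse and 329 ± 120 in stable tumours (SD, n = 7 each), and the medians, 284, 263 and 283 CPM, lay closer together than the means. In relapse against vehicle the log2 fold change was -0.38 ± 0.18 (SE; 95% interval -0.76 to 0.0042; adjusted p = 0.187, edgeR quasi-likelihood test), and 6 of 7 relapse tumours were below the vehicle median. Stable against vehicle gave -0.03 ± 0.18 (-0.42 to 0.35; adjusted p = 0.923), and relapse against stable gave -0.35 ± 0.18 (-0.73 to 0.037; adjusted p = 0.990). None of the 3 comparisons passed the threshold of 0.05, and in the first the interval runs from a level of 0.589 times that of vehicle tumours to no difference.

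These differences in Nf1 leaned on the few high tumours. Without vehicle tumours 2, 6 and 7 the log2 fold change in relapse against vehicle was -0.05 (adjusted p = 0.915) and that in stable against vehicle turned to 0.31 (adjusted p = 0.367). Leaving stable 1 out as well brought the difference between relapse and stable to -0.14 (adjusted p = 0.679). The summed basal and myoepithelial markers, high in vehicle 2, 6 and 7 through their contractile genes, were at 301.9 CPM in stable 1, the lowest of all 21 tumours. The 4 tumours with the most Nf1 RNA thus held both extremes of that sum. The summed level of 8 Schwann cell and nerve markers was 392.2, 382.1, 262.8 and 355.7 CPM in vehicle 2, 6 and 7 and stable 1, against 122.5 to 273.7 CPM in the other 17 tumours, and Sox10 made up most of the sum. Of that list, Cdh19, a cadherin of Schwann cells, was at 26.67, 24.82, 33.45 and 53.88 CPM in the 4 tumours and at most 16.18 CPM elsewhere. The part of either list in the level of Nf1 was not tested.

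Nf1 levels also differed within codes. Stable tumours 1 and 6 share a code and differed 2.11-fold (596.5 and 282.7 CPM), vehicle 1 and 2 differed 1.68-fold, and stable 2, 3 and 4 lay between 253.1 and 273.8 CPM. A code also links relapse 5 with stable 5, where the relapse tumour had 0.819 times the Nf1 level of the stable one, and relapse 6 with stable 7, where the ratio was 0.846. Within other codes the spread was 1.1-fold for vehicle 3 and 4 and 1.58-fold for vehicle 5, 6 and 7.

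**Figure D2:**
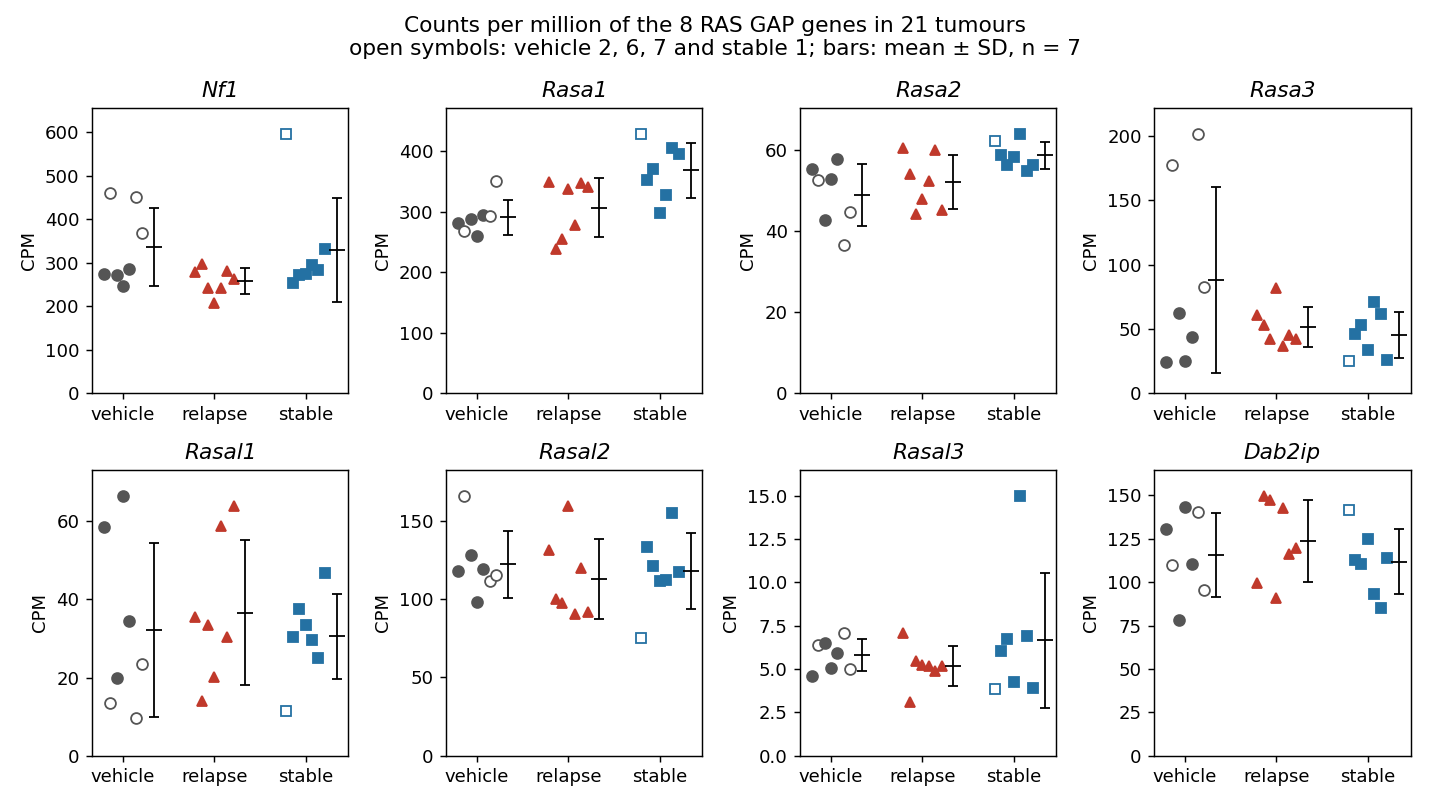
CPM of each member in the vehicle, relapse and stable groups, one point per tumour (n = 7 each), with the group mean and SD as bars and vehicle 2, 6 and 7 and stable 1 as open symbols. Nf1 in stable 1 (596.5 CPM) and Rasa3 in vehicle 2 and 6 (177.2 and 201.9 CPM) lie far from the other tumours, while the Rasa1 points of the stable group all lie above the vehicle median.

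Nf1 spans 241.9 kb of chromosome 11 (79339693 to 79581612, + strand) and its introns hold Evi2a, Evi2b and Omg on the opposite strand, none sharing an exon base with Nf1. Evi2a, a small membrane protein gene, had group means of 17.3 ± 3.76 CPM in vehicle, 14.4 ± 5.14 in relapse and 17.3 ± 7.16 in stable tumours (SD, n = 7 each). Evi2b, expressed in blood cells, had means of 10.04 ± 2.61, 9.94 ± 2.82 and 10.7 ± 5.6 CPM (SD, n = 7 each). Neither passed the test in any comparison. Omg, a myelin glycoprotein gene, reached at most 2.43 CPM and was removed by the filter on low counts.

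Rasa1 was the only member called in any comparison, in stable against vehicle, where 15.1% of the 15792 genes tested were called and 1 of the 8 members was. Vehicle tumours 1 to 7 were at 281.4, 267.6, 287.8, 259.2, 294, 292.6 and 350.2 CPM. Relapse tumours were at 349.8, 238.3, 254.6, 338.2, 277.4, 347.5 and 340.7 CPM, and stable tumours at 429.1, 351.8, 371, 298.2, 327.5, 404.7 and 395.4 CPM. All 7 stable tumours were above the vehicle median and 5 above the highest vehicle tumour, while 2 relapse tumours were below the lowest vehicle tumour and 3 below the lowest stable one. Stable over vehicle was 1.27-fold (95% interval 1.09 to 1.48; log2 0.34 ± 0.11 SE; adjusted p = 0.0367, edgeR quasi-likelihood test).

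This call sat near the threshold. Without 1 tumour at a time it held in 11 of 21 fits. These include every fit that left out a relapse tumour, which is in neither of the groups compared. Among fits without a vehicle or stable tumour, it held only without vehicle 5 or 7 or stable 4 or 5 (adjusted p = 0.047, 0.0276, 0.0287 and 0.0327 by edgeR). It was lost without vehicle 1, 2, 3, 4 or 6 (adjusted p = 0.0595, 0.0789, 0.0546, 0.0586 and 0.066) or without stable 1, 2, 3, 6 or 7 (0.0503, 0.0503, 0.0591, 0.0699 and 0.0741). Over all 33 alternatives the log2 fold change stayed between 0.30 and 0.41 while the adjusted p ran from 0.0147 to 0.234, the highest with counts summed per code and without vehicle 2, 6 and 7. Of the 33, 17 made the call, counting the fits that left out a relapse tumour. In relapse against vehicle Rasa1 differed by 0.08 ± 0.11 (adjusted p = 0.682). In relapse against stable it differed by -0.26 ± 0.11 (unadjusted p = 0.0225, adjusted p = 0.990), in a comparison where 0% of genes were called. Exons of Rasa1 and of Ccnh, on opposite strands, share 12 bases.

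Rasa2, Rasa3 and Rasal1 belong to the membrane-binding GAP1 family. Rasa2 ranged from 36.7 to 57.9 CPM (median 52.7) in vehicle, 44.3 to 60.7 (median 52.3) in relapse and 54.9 to 64.2 (median 58.4) in stable tumours. All 7 stable tumours were above the vehicle median and 4 above its highest value, and 5 of 7 relapse tumours were below the lowest stable one. The log2 fold change in stable against vehicle was 0.26 ± 0.10 (SE; unadjusted p = 0.0189, adjusted p = 0.0884 by edgeR), and DESeq2 called it (adjusted p = 0.046). Without vehicle 2, 6 and 7 it was 0.18 (adjusted p = 0.319).

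Rasa3, which acts on RAP1 as well as on RAS, showed the largest spread of the 8. Vehicle tumours 1 to 7 were at 24.5, 177.2, 62.2, 24.99, 43.4, 201.9 and 82.6 CPM. Relapse tumours ran from 37.1 to 82.2 CPM (median 45.1) and stable tumours from 25.1 to 71.2 CPM (median 46.4). The 3 highest of all 21 were vehicle 6, 2 and 7, the tumours with the highest sums of the basal and myoepithelial list. In them the contractile genes of that list were high, and Krt14 was lower than in the other vehicle tumours. Their 8 fibroblast markers summed to 5007, 8924 and 3909 CPM. The fibroblast markers did not move together. Dcn was at 2062, 2267 and 1594 CPM in these tumours, whereas Fbln1 and Mfap5 were lowest of all 21 in vehicle 6 (15.63 and 3.126 CPM). The sum of vehicle 7 was below those of relapse 1 and stable 6 (3965 and 5595 CPM), whose Rasa3 levels were lower (60.96 and 61.94 CPM). Relapse 4 and stable 5, highest in Rasa3 within their groups, also had the highest fibroblast sums there, 6992 and 8361 CPM, and the part of such cells in the level of Rasa3 was not tested. The other 4 vehicle tumours lay within the range of the drug groups or just below it.

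The log2 fold change of Rasa3 was -0.77 ± 0.41 in relapse against vehicle (SE; adjusted p = 0.235) and -0.95 ± 0.41 in stable against vehicle (95% interval -1.82 to -0.09; unadjusted p = 0.0317, adjusted p = 0.121). Without vehicle 2, 6 and 7 both turned positive, to 0.42 (adjusted p = 0.478) and 0.24 (adjusted p = 0.690). Relapse against stable gave 0.19 ± 0.41 (adjusted p = 0.999).

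Rasal1, a calcium-responsive member, was low where Rasa3 was highest, with Pearson's r between them of -0.64 over the 21 tumours and -0.38 over the 18 without vehicle 2, 6 and 7, given as a description. It stood at 58.6, 13.4, 19.8, 66.5, 34.5, 9.57 and 23.4 CPM in vehicle tumours 1 to 7. Relapse tumours ranged from 13.95 to 63.8 CPM (median 33.4) and stable tumours from 11.5 to 46.7 CPM (median 30.4), with stable 1 lowest. Its log2 fold changes were 0.18 ± 0.41, -0.08 ± 0.41 and 0.26 ± 0.41 (SE) when relapse or stable was set against vehicle and when relapse was set against stable, with adjusted p of 0.818, 0.919 and 0.999. Without vehicle 2, 6 and 7 the first became -0.28 and the second -0.55, neither called (adjusted p = 0.744 and 0.446).

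Rasal2, Rasal3 and Dab2ip belong to the SynGAP-like family. Rasal2 and Dab2ip, both described as suppressors of tumour growth in breast or prostate epithelium, were at similar CPM. Rasal2 ranged from 97.8 to 165.8 CPM in vehicle (median 117.7), 90.3 to 159.5 in relapse (median 99.98) and 75.04 to 154.8 in stable tumours (median 117.1). Dab2ip ranged from 78.1 to 143.2 CPM in vehicle (median 110.7), 91.0 to 149.7 in relapse (median 119.8) and 85.2 to 141.4 in stable tumours (median 112.5). For Rasal2, 3 of 7 relapse tumours were below the lowest vehicle tumour, and for Dab2ip 3 of 7 relapse tumours were above the highest stable one and 2 above the highest vehicle one.

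Neither Rasal2 nor Dab2ip was called. For Rasal2 the log2 fold changes were -0.11, -0.05 and -0.06 in the same order of comparisons (SE 0.15 each), and for Dab2ip they were 0.10, -0.05 and 0.15 (SE 0.15 each). The 95% intervals of the fold lay between 0.741 and 1.20 for Rasal2 and between 0.781 and 1.37 for Dab2ip over the 3 comparisons. Where Rasal2 was high, Dab2ip tended to be low, with Pearson's r of -0.69 over the 21 tumours and -0.82 over the 14 given BYL719. These points share their library scaling and the makeup of each tumour, so r is given as a description only. Rasa3 ran against Dab2ip too, with r of -0.34 over the 21 tumours and -0.70 over the 18 without vehicle 2, 6 and 7.

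**Figure D3:**
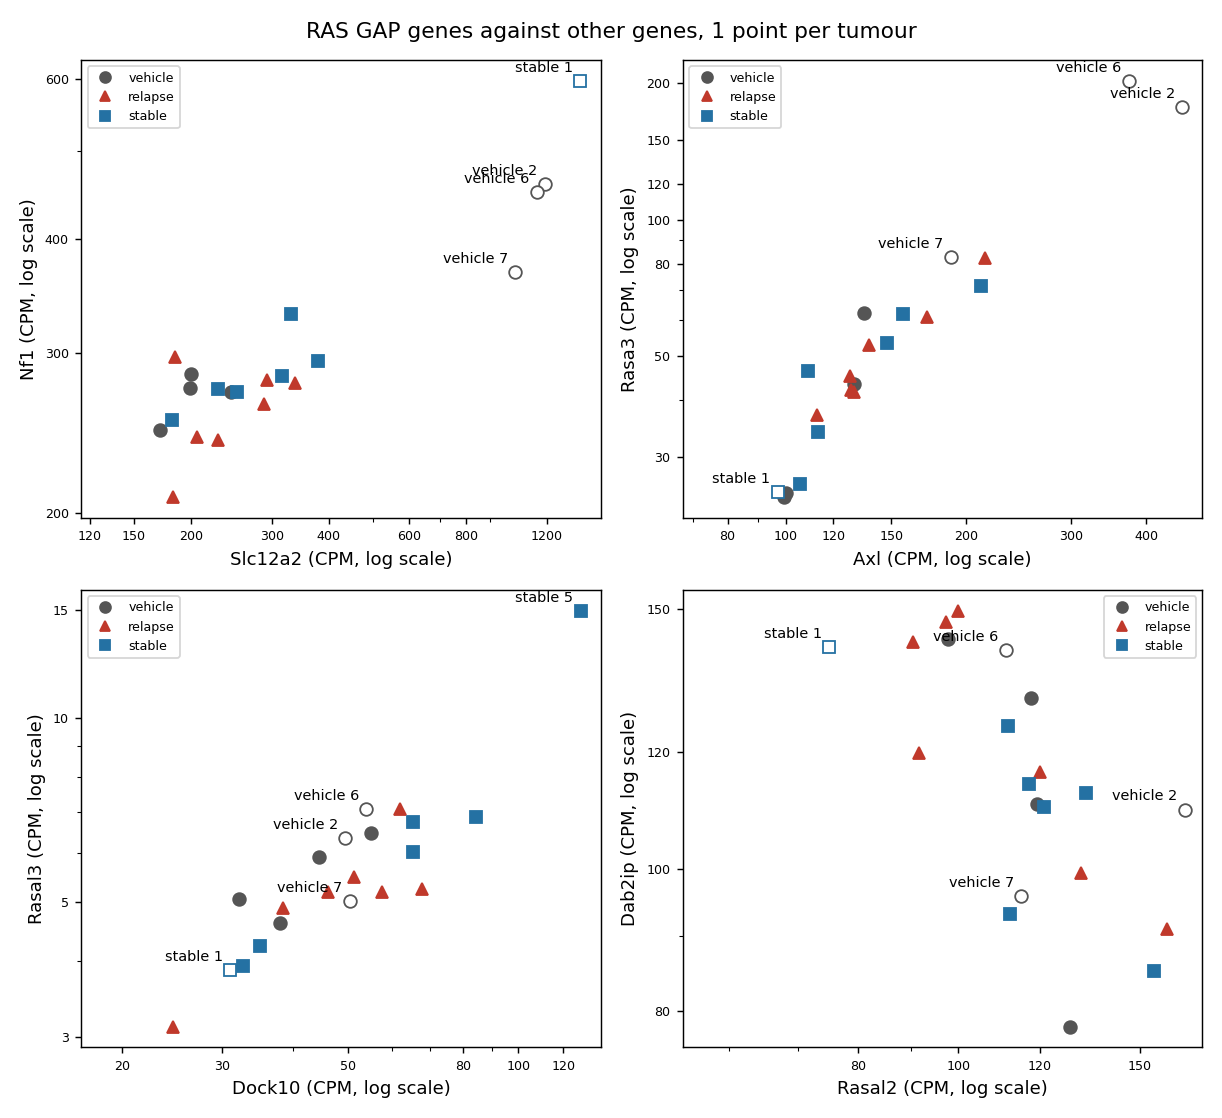
Nf1 against Slc12a2, Rasa3 against Axl, Rasal3 against Dock10 and Dab2ip against Rasal2, in CPM (log axes), one point per tumour, marked by group, with vehicle 2, 6 and 7 and stable 1 as open symbols. Vehicle 2, 6 and 7 and stable 1 hold the high Nf1 values, and Rasal2 and Dab2ip run in opposite directions across the 21 tumours.

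Rasal3, a GAP of blood cells, was the least abundant member. It stood at 4.62 to 7.09 CPM in vehicle (median 5.91), 3.12 to 7.10 in relapse (median 5.19) and 3.87 to 14.98 in stable tumours (median 6.02). Stable 5 alone reached 14.98 CPM, and the next stable tumour was at 6.89 CPM. In that tumour the 5 B cell markers summed to 15.5 CPM, against a maximum of 1.56 CPM among vehicle tumours and of 5.36 CPM after relapse, and the 8 T and NK cell markers in the table to 29.5 CPM, the highest of all. The part of such cells in the Rasal3 level was not tested. The log2 fold changes were -0.16, 0.20 and -0.37 in the order used above (SE 0.26 each), with adjusted p of 0.730, 0.6249 and 0.990. Genes on the opposite strand share 635 exon bases with Rasal3, 347 with Dab2ip and 244 with Rasal2, and how the counting used strand is not known.

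Rasa1 apart, no member was called by the edgeR fit in any of the 3 comparisons. In relapse against vehicle 0 of 8 members were called, against 11.2% of all genes tested, with 0 members at an unadjusted p under 0.05 and 0 called by DESeq2. In stable against vehicle the count was 1 of 8, Rasa1, against 15.1%, with 3 members at an unadjusted p under 0.05 (Rasa1, Rasa2 and Rasa3) and 2 called by DESeq2. In relapse against stable 0 of 8 were called, against 0% of all genes, with 1 member and 751 genes at an unadjusted p under 0.05, and DESeq2 called 0 members and 6 genes. The median log2 fold change of the members was -0.02, -0.04 and -0.12, against -0.02, -0.0048 and -0.01 over all genes tested. In relapse against vehicle the called genes split into 856 higher and 916 lower, and into 953 higher and 673 lower with upper quartile scaling.

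**Figure D4:**
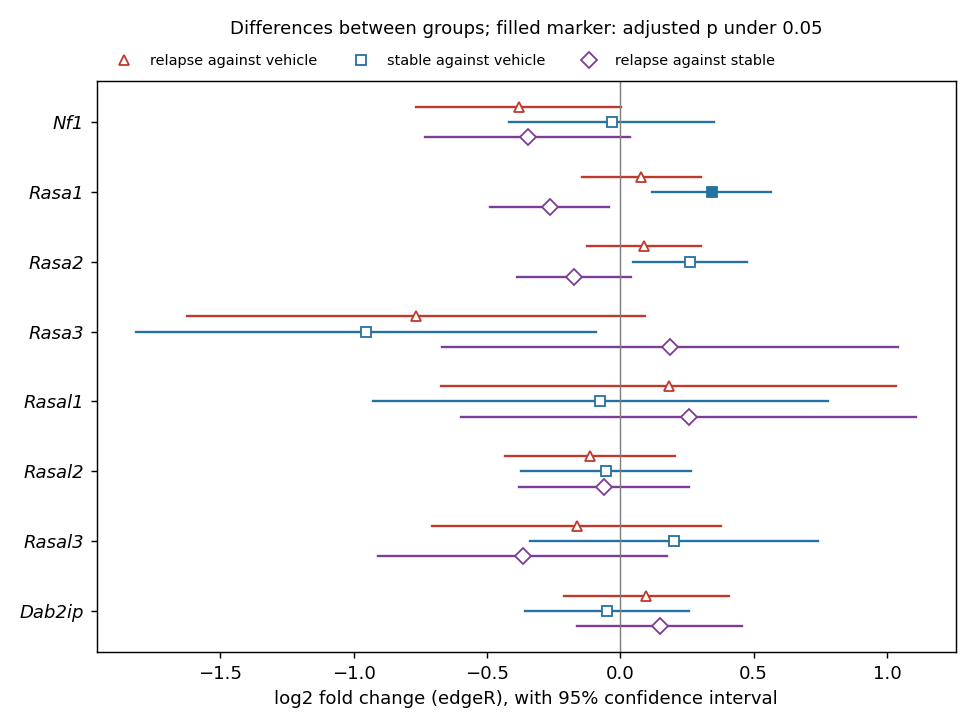
Log2 fold change of each member in the 3 comparisons, with 95% intervals from the edgeR fit and a filled marker where a gene was called. The interval of Rasa1 in stable against vehicle (0.12 to 0.57) excludes 0 and is the only one called after adjustment, and the widest intervals belong to Rasa3 and Rasal1.

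The levels of the members were compared with all other genes tested by Pearson's r of log2 CPM over the 21 tumours, as a description. For Nf1 the most alike were Gtf2a2, a subunit of the general factor TFIIA (r = 0.92), Slc12a2, the sodium, potassium and chloride cotransporter NKCC1 (0.92), and Zfr, a zinc finger RNA-binding protein (0.91). Over the 14 BYL719 tumours r was 0.92, 0.92 and 0.88. Without the 4 tumours of highest Nf1 it was 0.61, 0.56 and 0.36. Leaving tumours out by their Nf1 level narrows its range and by itself tends to lower r, so no conclusion is drawn from this drop. Slc12a2 stood at 1186, 1141, 1023 and 1419 CPM in vehicle 2, 6 and 7 and stable 1, and at 170.7 to 378 CPM in the other 17 tumours, so those 4 were the highest in both genes.

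The other members had different nearest genes. Rasa3 was most like Tacc1 (r = 0.97), Axl, a receptor tyrosine kinase (0.96), and Gas6, its ligand (0.96), and r stayed at 0.97, 0.90 and 0.89 without the 4 tumours. Rasa1 was most like Tbl1xr1, a corepressor subunit (0.88), Vwa5a (0.84) and Mkl2, a coactivator of SRF (0.81). Rasal1 was most like Epb41, the membrane skeleton protein 4.1 (0.92), N4bp1 (0.88) and Unc13b (0.87). Rasal3 was most like Dock10, an exchange factor of lymphocytes (0.89), Naip5, an inflammasome sensor (0.86), and Lrmp (0.86), and Dock10 too was highest in stable 5 at 128.9 CPM. Rasa2 was most like Napg (0.77), Skil (0.75) and Atp8b1 (0.75). Rasal2 was most like Ids, a lysosomal sulfatase (0.80), Xpr1, a phosphate exporter (0.80), and Bmt2 (0.78). Dab2ip was most like Stard10, a lipid transfer protein (0.81), Slc35c2 (0.79) and Nol4l (0.78).

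The rest of the RAS pathway was read from 7 lists and the genes in the Nf1 introns, 88 genes in all, of which 86 could be tested. In relapse against vehicle 4 rose and 4 fell (9.3%, against 11.2% of all genes), in stable against vehicle 3 rose and 10 fell (15.1%, against 15.1%), and in relapse against stable none was called. These shares are near the background. Over all genes tested, 5.42% rose and 5.8% fell in relapse against vehicle, and 6.9% rose and 8.16% fell in stable against vehicle. The counts of each list below rest on few genes and were not tested against these shares. Without vehicle 2, 6 and 7 the calls were 2, 6 and 0, and with counts summed per code 3, 7 and 0. Both drug groups were compared with the same 7 vehicle tumours, so their values are not independent of each other.

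Among the other GAPs and related proteins, 1 of 14 rose in relapse against vehicle (5.42% of all genes rose). In stable against vehicle 1 rose and 2 fell (6.9% and 8.16% of all genes). The gene that rose was Tsc1, which with Tsc2 forms the GAP complex for RHEB downstream of AKT. Tsc1 ran from 48.9 to 61.6 CPM in vehicle, from 70.8 to 85.2 in relapse and from 83.1 to 106.1 in stable tumours. It rose by 0.53 ± 0.08 on the log2 scale in relapse (SE; adjusted p = 0.00106) and 0.69 ± 0.08 in stable tumours (adjusted p = 3.5e-05, edgeR quasi-likelihood test), and both calls held without vehicle 2, 6 and 7 (adjusted p = 0.0178 and 0.00116). In stable tumours Rap1gap, a GAP for RAP1, fell by 1.80 and Sipa1l3 fell by 0.35 (adjusted p = 0.0086 and 0.048), and neither call held without vehicle 2, 6 and 7 (log2 -0.58 and -0.26; adjusted p = 0.25 and 0.224).

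Of the 11 RAS family GTPases, 2 fell in each comparison with vehicle, where 5.8% (relapse) and 8.16% (stable) of all genes fell, and none rose. Hras ran from 27.4 to 39.8 CPM in vehicle, from 20.8 to 31.0 in relapse and from 18.4 to 26.1 in stable tumours. It fell by 0.32 in relapse (adjusted p = 0.04995) and by 0.58 in stable tumours (adjusted p = 0.00189), and the second call held without vehicle 2, 6 and 7 (adjusted p = 0.00822) while the first did not, although its log2 fold change was -0.37 there (adjusted p = 0.0948). Rap1a fell by 0.44 in relapse (adjusted p = 0.0332) and Mras by 0.68 in stable tumours (adjusted p = 0.0246), and both calls were lost without those tumours (log2 -0.14 and -0.52; adjusted p = 0.432 and 0.171). Among the 10 exchange factors for RAS and RAP proteins, only Rapgef1 was called, which loads RAP1 rather than RAS with GTP. It fell by 0.38 in stable tumours (adjusted p = 0.0217), and without vehicle 2, 6 and 7 it was at -0.24 (adjusted p = 0.178).

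Of the 7 partners of neurofibromin and regulators of RAS turnover, Lztr1, which directs RAS proteins to degradation, rose by 0.25 in relapse (adjusted p = 0.0482), and without vehicle 2, 6 and 7 it was at 0.21 (adjusted p = 0.188). The other 6, with the SPRED proteins that bring neurofibromin to the membrane, were not called in any comparison. Of all genes, 5.42% rose and 5.8% fell in relapse against vehicle, and 6.9% rose and 8.16% fell in stable against vehicle. Among 10 adaptors upstream of RAS, 1 fell in relapse, and 1 rose and 1 fell in stable tumours, against the same shares of all genes. Ptpn11, the phosphatase SHP2, fell in both drug groups. Ptpn11 ran from 218.8 to 270.2 CPM in vehicle, from 162.3 to 206.7 in relapse and from 138.9 to 175.9 in stable tumours. Its log2 fold changes were -0.32 ± 0.07 and -0.52 ± 0.07 (SE; adjusted p = 0.011 and 0.000374), and without vehicle 2, 6 and 7 the call held in stable (adjusted p = 0.00442) and was lost in relapse tumours (log2 -0.25; adjusted p = 0.086). Gab1, a docking protein, rose in stable tumours by 0.36 (adjusted p = 0.0407), and without those tumours its log2 fold change was 0.42 and not called (adjusted p = 0.0829).

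Among 18 tested effectors of RAS and members of the ERK cascade, 1 fell in relapse and 3 in stable tumours (5.8% and 8.16% of all genes). Ralb, a GTPase activated through RAL exchange factors, fell by 0.47 in relapse and 0.54 in stable tumours (adjusted p = 0.0103 and 0.00447), with means of 76.6 ± 12.6 CPM for vehicle, 55.2 ± 4.29 for relapse and 52.8 ± 8.04 for stable (SD, n = 7 each). Both calls held without vehicle 2, 6 and 7 (adjusted p = 0.0146 and 0.00423). The MEK genes Map2k2 and Map2k1 fell by 0.32 and 0.37 in stable tumours (adjusted p = 0.0257 and 0.0419), and of these Map2k1 kept its call without the 3 tumours (adjusted p = 0.0486) and Map2k2 did not (log2 -0.26; adjusted p = 0.161). With counts summed per code neither was called (adjusted p = 0.138 for Map2k1 and 0.263 for Map2k2).

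Among 14 genes of ERK pathway output, 2 rose in relapse (5.42% of all genes rose), and in stable tumours 1 rose and 1 fell (6.9% and 8.16% of all genes). Spry1, a feedback inhibitor of receptor signalling, rose by 0.82 in relapse and 0.81 in stable tumours (adjusted p = 0.0318 and 0.0289). Myc rose by 0.94 in relapse (adjusted p = 0.0354), and Ccnd1, cyclin D1, fell by 0.94 in stable tumours (adjusted p = 0.00823). Without vehicle 2, 6 and 7 the call of Ccnd1 held (adjusted p = 0.017), and that of Myc did not (log2 0.50; adjusted p = 0.213). The calls of Spry1 were lost as well (adjusted p = 0.0702 and 0.0597), with log2 fold changes of 0.88 in both that were no smaller than with all tumours. With counts summed per code, Tsc1 and Ralb kept their calls in relapse tumours (adjusted p = 0.0127 and 0.038, edgeR). In stable tumours Tsc1, Hras, Mras, Rap1gap, Ptpn11, Ralb and Ccnd1 kept theirs (adjusted p = 0.01, 0.0453, 0.0293, 0.0498, 0.0257, 0.0497 and 0.0461). The other calls named from the pathway lists were lost in that fit.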

How the data were processed

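Polyadenylated RNA of 21 frozen tumours was sequenced from stranded libraries with single-end reads, per the labels' protocols. STAR 2.5.2a, SAMtools 1.3.1, Picard 2.9.2, edgeR and the build mm10 are named in the submitters' processing notes, with no role given for each. The deposited table holds raw counts by gene, as whole numbers, with a gene length column. The annotation, strand setting and treatment of multi-mapping reads were not given in the sources used here. In 10202 of 24028 rows an extra cell precedes the values, and the last 25 cells of a row were used.

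Counts were filtered with filterByExpr by group (15792 genes kept), scaled by TMM and tested with edgeR 4.0.16 quasi-likelihood F tests (R 4.3.3) over all 21 tumours with no covariate. Genes were called at a Benjamini-Hochberg adjusted p under 0.05 over all genes tested. SE was the log2 fold change divided by the root of F. CPM used TMM-scaled totals, and correlations used log2 CPM with a prior count of 2. The length column, in units other than counts and taken as the authors deposited it, gave CPM per kb. Alternatives used DESeq2 1.42.0, limma 3.58.1 (voom), other scalings, no filter, a replicate block, counts summed per code and tumours left out. The scripts were checked on simulated counts.

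All 8 members are named. Of each pathway list up to 4 called genes of lowest p are named, and for each member the 3 genes of highest r. The members and lists were chosen with earlier results of these data known. Sequences are from GENCODE vM21 (GRCm38).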

Additional observations from a re-analysis of the deposited data

Results flagged for a closer look

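Each member's 7 values in each group were examined for a tumour whose gap to its nearest neighbour took up a larger share of the group's range than the 95% critical value of Dixon's test for 7 samples, and 3 of 24 sets of values held one. Chance flags about 1 in 20 such sets. Nf1 in stable 1 was at 596.5 CPM, with the next stable tumour at 330.8 CPM. In stable 1 the 303 tested genes with a length over 12000 bases lay low, with a median deviation of -0.47 on the log2 scale from their own means, whereas Nf1, with a length of 15264 bases, was at its highest there. In vehicle 2, 6 and 7, also high in Nf1, the same genes lay at 0.1, 0.1 and 0.11. In vehicle 1, 3, 4 and 5 they lay at -0.12, -0.061, -0.21 and -0.038. The part of gene length in the level of Nf1 was not tested. Rasa1 in vehicle 7 was at 350.2 CPM, with the next vehicle tumour at 294 CPM, and without vehicle 7 the log2 fold change of Rasa1 in stable against vehicle was 0.41 (adjusted p = 0.0276). Rasal3 in stable 5 was at 14.98 CPM, with the next at 6.89 CPM, and without stable 5 its log2 fold change in stable against vehicle was -0.13 (adjusted p = 0.669).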

How the results depend on the processing

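Each result was recomputed under 33 alternatives, of which the fit without vehicle 2, 6 and 7 and stable 1 was chosen after seeing the data. The count of members called in stable against vehicle, 1, became 2 with the DESeq2 Wald test and 0 with no filter, with only the 2 groups compared, with counts summed per code, without vehicle 2, 6 and 7, with both of these changes, and without vehicle 2, 6 and 7 and stable 1, and ranged from 0 to 1 with 1 tumour left out. Genes called in relapse against vehicle, 1772, became 955 summed per code, 527 without vehicle 2, 6 and 7 and 180 with both, and 1156 (without vehicle 6) to 2671 (without stable 1) with 1 tumour left out. Those in stable against vehicle, 2378, became 964 with only the 2 groups, 592 summed per code, 847 without vehicle 2, 6 and 7 and 172 with both, and 1470 (without vehicle 6) to 3272 (without stable 1) with 1 tumour left out; without vehicle 2 the counts were 1160 and 1496. In relapse against stable DESeq2 called 6 genes, and leaving out 1 tumour gave 0 to 4 (4 without relapse 4). Replicate numbers did not pair the tumours, since 1 of 7 same-numbered pairs had a correlation above 0.1 in each comparison (lowest -0.258, highest 0.358). With the replicate number as a block 987 and 1251 genes were called against vehicle and no member's call changed.

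Differences of members that were not called had another sign than reported in 43 combinations of a member, a comparison and an alternative. Log2 fold changes of Nf1 in stable against vehicle turned to 0.0153 with upper quartile factors, 0.0268 summed per code, 0.306 without vehicle 2, 6 and 7, 0.253 with both changes and 0.0825 without stable 1 as well, and ranged from -0.243 to 0.0815 with 1 tumour left out. Voom with quality weights gave 0.247 and 0.0809 for Rasa3 in relapse and stable against vehicle, -0.125 for Rasal1 in relapse and 0.0744 for Rasal2 in stable tumours, which was 0.00686 with upper quartile factors. Rasal1 in stable tumours was 0.12 with the code as a random effect and 0.107 with the replicate block. Without vehicle 2, 6 and 7, Rasa3 was 0.424 and 0.241, Rasal1 -0.281 and Rasal2 0.0354; summed per code as well, Rasa3 was 0.449 and 0.262, Rasal1 -0.359 and Rasa2 in relapse -0.0837. Without stable 1 too, the values were 0.411 and 0.334 for Rasa3, -0.293 for Rasal1, 0.114 for Rasal2 and -0.00485 for Rasa2. With 1 tumour left out, stable against vehicle ran from -0.242 to 0.205 for Rasal1, -0.13 to 0.034 for Rasal2, -0.126 to 0.018 for Dab2ip and -0.133 to 0.3 for Rasal3, relapse against vehicle from -0.0269 to 0.462 for Rasal1, and relapse against stable from -0.165 to 0.0153 for Rasal2. The cause was not tested. Low counts kept Omg out of the test.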
